A study of Rattus norvegicus with 14 samples.

Results

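Actb, Tuba1a, Map1b and Arpc1a encode parts of the Schwann cell cytoskeleton, and the levels of their transcription start sites (TSSs) were measured in rat nerve and cultured Schwann cells by Tn5Prime, which sequences the 5′ ends of polyadenylated RNAs. The members are all TSSs listed under these 4 gene symbols, which are 29 of the 4993 candidate TSSs: 22 for Actb, 2 for Tuba1a, 2 for Map1b and 3 for Arpc1a. A candidate TSS is a cluster of read starts in sciatic nerve that lay near an H3K4me3 peak and a SOX10 ChIP-Seq peak of that tissue. Values are RPM, the reads of a TSS scaled to the size of the whole library, and the 14 libraries held between 29895599 and 79940274 reads.

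The 5 groups were as follows. Sciatic nerve from adult wild-type rats gave 2 libraries, 1 per animal. Wild-type primary rat Schwann cells gave 3 vehicle-treated libraries (control) and 3 libraries given 250 µM CPT-cAMP (cAMP), an analog that enters cells and is used to drive Schwann cell differentiation, for 3 days. Both arms had been expanded with 10 nM neuregulin and 2 µM forskolin, which were withdrawn before the 5% FBS medium in which the comparison was made. S16 cells, an immortalized rat Schwann cell line that expresses myelin genes, gave 2 parental libraries and 4 ΔSOX10 libraries, each from a different clone (1-1, 1-2, 2-1 and 2-2) with frameshifts made by CRISPR/Cas9 in the Sox10 coding sequence. The clones came from 2 guide RNAs. All of them went through transfection, puromycin selection and growth from single cells, and the parental cells did not. Effects of these steps cannot be told apart from loss of SOX10 in this comparison, nor can clonal differences within a single clone. The primary cell libraries were read on a NovaSeq instrument and all others on a HiSeq, so that instrument and model cannot be told apart where primary cells are set against the others.

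Actin filaments and microtubules give Schwann cells their shape and carry the changes of shape by which these cells ensheath and myelinate axons. Actb encodes β-actin, the main cytoplasmic actin monomer, and Arpc1a encodes a subunit of the Arp2/3 complex, which starts branches on existing actin filaments. Tuba1a encodes an α-tubulin, which pairs with β-tubulin to build microtubules, and Map1b encodes a large microtubule-binding protein best known from growing axons. SOX10 is the transcription factor that maintains Schwann cell identity and drives myelin genes.

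The Sox10 TSS itself had 90.7 and 77.5 RPM in the parental libraries and between 0 and 4 reads in each of the 4 clones. Of 11 Schwann cell markers, 9 were listed, and their summed level was between 72500 and 73600 RPM in nerve, between 5950 and 12300 RPM in primary cells, between 10200 and 10400 RPM in parental S16 cells and between 146 and 400 RPM in the clones. Of the markers of other cell types, 2 of 9 for fibroblasts and perineurial cells, 1 of 9 for endothelial and mural cells, 1 of 7 for macrophages and 0 of 8 for neurons were listed, so that their shares of these samples cannot be judged from this table.

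The main TSS of each gene, the one with the highest mean level in nerve, lay at these positions of the rn5 assembly. The Actb TSS was at chr12:15745852-15745864 on the plus strand and overlapped both its H3K4me3 peak and its SOX10 peak. The Arpc1a TSS was on the same chromosome at chr12:13346638-13346769 on the minus strand, also within both peaks, and the study places it in an intron of the gene. All 3 Arpc1a TSSs lie at this intronic site, so that their values are those of transcripts begun there and not of the gene as a whole, whose other starts were not analysed here. The Map1b TSS was at chr2:48865073-48865205 on the minus strand, overlapping both peaks. The Tuba1a TSS was at chrX:115147515-115147557 on the minus strand, inside its H3K4me3 peak and 43 bp from its SOX10 peak. Over all candidate TSSs, 51.7% overlapped their SOX10 peak, and 5 of the 29 members did.

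Tuba1a is on chromosome X in rn5 and on chromosome 7 in the newer GRCr8 assembly. Of 2808 listed genes matched to RefSeq by symbol, 19 changed chromosome between the assemblies, and 10 of these, Tuba1a among them, are on X in rn5 and on 7 in GRCr8. The other 3 members are on the same chromosome in both assemblies. Tuba1a is nearly identical in coding sequence to Tuba1b, so reads may be split between them and the levels of either are uncertain to that extent.

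RefSeq promoter sequences of GRCr8 matched 2 of the 4 genes by symbol, Map1b and Tuba1a, and are shown because both TSSs lie in H3K4me3-marked chromatin and were lower with CPT-cAMP. Each is the 250 bases before the annotated start, from chr2:32644472-32644721 for Map1b and chr7:131995820-131996069 for Tuba1a, both on the minus strand and written 5′ to 3′. Capitals mark matches to the TATA box (TATAA, on the transcript strand alone) and, on both strands, to the CCAAT box, to the GC box (GGGCGG) and to the core of the SOX motif (ACAAAG or its variant ACAATG).
Map1b: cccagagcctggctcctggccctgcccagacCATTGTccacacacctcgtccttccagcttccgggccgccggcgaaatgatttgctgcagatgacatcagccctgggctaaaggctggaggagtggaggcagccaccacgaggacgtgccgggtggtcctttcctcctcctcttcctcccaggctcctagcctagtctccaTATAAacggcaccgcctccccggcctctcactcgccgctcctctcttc
Tuba1a: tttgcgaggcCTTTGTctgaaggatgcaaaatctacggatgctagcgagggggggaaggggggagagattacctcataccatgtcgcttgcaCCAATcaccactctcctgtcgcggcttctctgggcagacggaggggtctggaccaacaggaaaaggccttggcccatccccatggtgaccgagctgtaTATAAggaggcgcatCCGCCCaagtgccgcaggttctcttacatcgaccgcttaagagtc
Both held 1 TATAA, which began 48 bases before the annotated start in Map1b and 60 bases before it in Tuba1a, as did 16.7% of 33469 rat promoter sequences of the same length. Both also held 1 SOX core, 219 and 240 bases before the start, a match found in 25.3% of the promoters. Tuba1a held 1 CCAAT (34.0% of promoters) and 1 GGGCGG (30.5%), and Map1b held neither. Neither held TGACG, the core of the cAMP response element (18.2% of promoters), its full form TGACGTCA (1.59%) or a CArG box, the site of serum response factor (1.5%). The GC content was 63.6% in Map1b and 56.8% in Tuba1a, higher than in 82.1% and 66.7% of the promoters.

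Actb was among the most highly expressed candidate TSSs in every group. Its main TSS ranked 12th of all 4993 in nerve, 2nd in both groups of primary cells and 1st in both groups of S16 cells. It measured 2105 and 2504 RPM in the nerve libraries. The control libraries had 11005, 11096 and 11236 RPM, and the cAMP libraries had 7842, 8099 and 8275 RPM. In S16 cells it measured 15600 and 14300 RPM in the parental libraries and 32200, 21700, 24037 and 25967 RPM in clones 1-1, 1-2, 2-1 and 2-2. No pair of groups overlapped, with nerve lowest and the clones highest.

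Tuba1a was nearer to the same level in all groups. Its main TSS ranked 8th in nerve and between 6th and 11th in the cultured cells. The nerve libraries had 2965 and 3702 RPM, the control libraries 5229, 5049 and 4972 RPM, and the cAMP libraries 3038, 2885 and 2724 RPM. Parental S16 cells had 5740 and 5300 RPM, and clones 1-1, 1-2, 2-1 and 2-2 had 5180, 2950, 4157 and 4749 RPM. The range of the nerve libraries met that of the cAMP libraries, and clone 1-2 stood below the other clones.

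Map1b was the least expressed in nerve of the 4 main TSSs. The nerve libraries had 120 and 96.6 RPM, the control libraries 94.7, 122 and 94.8 RPM, and the cAMP libraries 82.7, 63.1 and 77.3 RPM. Parental S16 cells had 90.0 and 62.4 RPM, and the clones, in the order above, had 104, 39.6, 50.6 and 43.4 RPM. Clone 1-1 was above both parental libraries and the other clones were below both.

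Arpc1a varied most between groups. Its main TSS had 384 and 335 RPM in nerve, 561, 529 and 529 RPM in control cells and 262, 258 and 240 RPM in cAMP-treated cells. Parental S16 cells had 40.9 and 30.3 RPM. The 4 clones together had 1 read, in clone 2-2 (0.0285 RPM). With no read in clones 1-1, 1-2 and 2-1, levels of up to 0.0764, 0.0763 and 0.082 RPM are allowed by a count of 0 (3 reads of the library, counting error only).

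**Figure D1:**
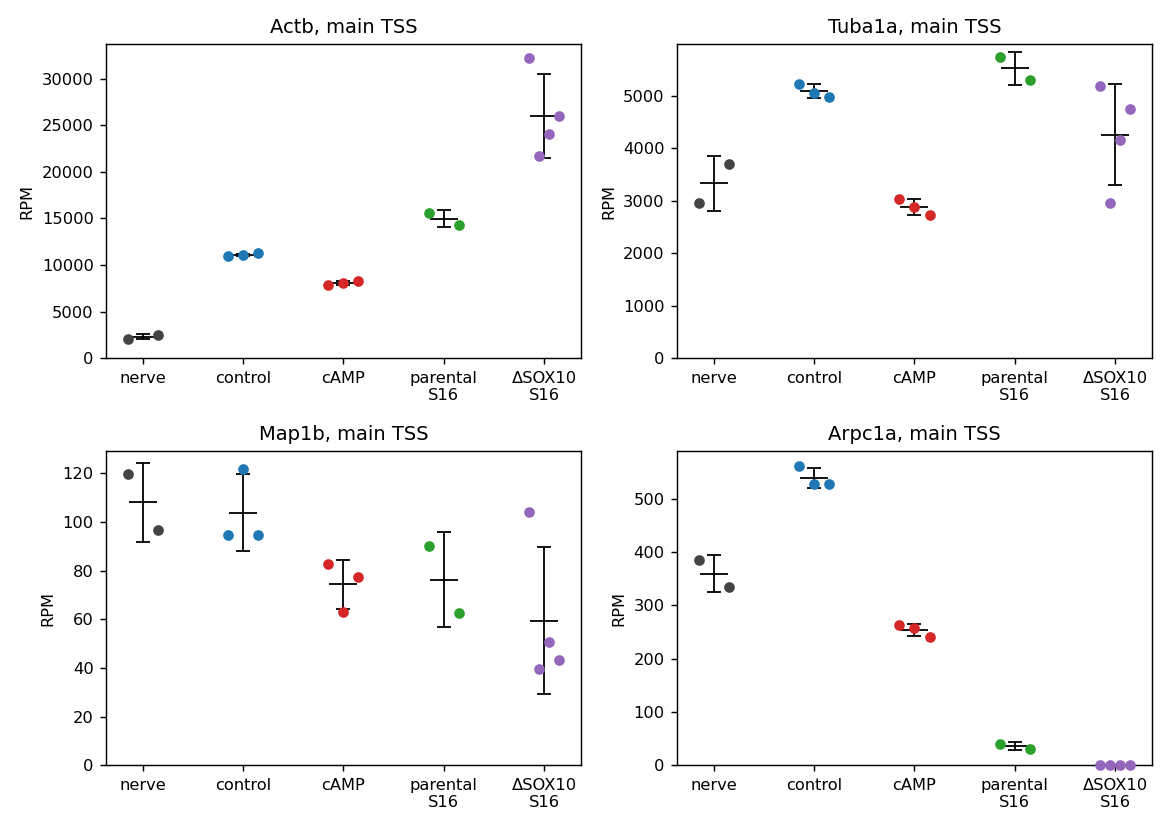
RPM of the main TSS of each gene in the 14 libraries, 1 panel per gene with its own axis from 0; points are libraries, bars are group means ± SD (n = 2 nerve, 3 control, 3 cAMP, 2 parental and 4 ΔSOX10). Actb rises from 2105 RPM in nerve to 32200 RPM in a clone, and Arpc1a goes from 561 RPM in a control library to 0 in 3 clones.

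The order of the group levels was tested in 1 limma model over all 14 libraries, on log2(RPM + 1), between neighbours in the order. For Arpc1a the order was control, nerve, cAMP, parental and ΔSOX10, and all 4 neighbouring pairs differed (adjusted p = 0.00764, 0.0198, 8.06e-08 and 1.6e-11). For Actb the order was ΔSOX10, parental, control, cAMP and nerve. Parental and control cells did not pass the test (0.43 on the log2 scale, SE 0.152, adjusted p = 0.0636), and the other 3 pairs did, with adjusted p of 0.00263, 0.0378 and 3.63e-07. For Tuba1a and Map1b none of the 4 neighbouring pairs passed, with adjusted p between 0.131 and 0.763 for Tuba1a and between 0.268 and 1 for Map1b. Groups further apart in the order can still differ. In the same limma model control and cAMP cells, which are not neighbours for either gene, differed for Tuba1a (-0.82, adjusted p = 0.00491) but not for Map1b (-0.47, adjusted p = 0.366).

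These pairs are read against the whole table, in which 54.3% of TSSs differed between nerve and cAMP cells, 58.7% between nerve and control cells, 58.5% between nerve and ΔSOX10 cells and 35.9% between cAMP and ΔSOX10 cells. Of the other pairs of groups, 31.9% differed between control and ΔSOX10 cells, 20.6% between control and parental cells, 19.7% between cAMP and parental cells, 13.2% between control and cAMP cells and 9.17% between parental and ΔSOX10 cells. The places next to nerve depended on scaling. After TMM scaling Arpc1a did not pass between nerve and control cells (adjusted p = 0.941), Tuba1a did between nerve and cAMP cells (adjusted p = 0.00033), and Actb did between parental and control cells (adjusted p = 0.00159). In bulk samples, fewer cells of a type and less RNA per cell cannot be told apart, which applies to nerve in particular.

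With CPT-cAMP the main TSS of all 4 genes fell in primary Schwann cells. For Arpc1a the control mean was 540 ± 18.8 RPM and the cAMP mean 254 ± 11.8 RPM (SD over 3 libraries in each group), which is a log2 fold change of -1.09 (SE 0.0863, limma adjusted p = 2.06e-09). Tuba1a fell from 5083 ± 132 to 2882 ± 157 RPM, with a log2 fold change of -0.82 (SE 0.0482, limma adjusted p = 1.34e-11). Actb fell from 11112 ± 117 to 8072 ± 218 RPM, with a log2 fold change of -0.46 (SE 0.0358, limma adjusted p = 1.44e-09). In these 3 genes every cAMP library was below every control library, as in 17.4% of the 4119 TSSs tested. The change was called under all 17 alternatives to this comparison. In the model of all 14 libraries with a pseudocount of 0.1, however, Actb missed the threshold (adjusted p = 0.0628).

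Map1b fell from 104 ± 15.7 to 74.4 ± 10.2 RPM, a log2 fold change of -0.47 (SE 0.159, limma adjusted p = 0.0337). All 3 cAMP libraries were below all 3 control libraries, as in 17.4% of all TSSs tested. The call was lost, however, under 7 of 17 alternatives, among them edgeR's quasi-likelihood test (adjusted p = 0.0618). It was also lost without control library 2 (adjusted p = 0.19), control library 3 (0.0514), cAMP library 2 (0.147) or cAMP library 3 (0.0687).

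Of the 29 members, 27 were above 1 RPM in at least 2 of the 6 libraries and were tested. Of these, 8 were lower with CPT-cAMP (adjusted p under 0.05), beside 11.0% of the 4119 TSSs tested in the table. The members were chosen with earlier results of these data known, so such counts describe the members and do not test them as a set. None was higher by limma (0 at an unadjusted p under 0.05 as well), nor by edgeR or DESeq2, beside 12.9% of all TSSs. The 27 had a median log2 fold change of -0.46, and all TSSs tested had one of 0.02. Of the 27, however, 21 belong to Actb, with a median of -0.41. The count and the median therefore weigh Actb most and do not stand for 27 separate genes. The 8 TSSs comprise the 4 main ones, a second of Arpc1a and 3 of Actb. Summed over the listed TSSs, which for Arpc1a are the intronic ones alone, each gene was lower too, with log2 fold changes of -1.06 (Arpc1a), -0.82 (Tuba1a), -0.47 (Map1b) and -0.46 (Actb) and limma adjusted p of 2.53e-10, 9.22e-13, 0.0265 and 2.18e-10, beside 14.7% of genes lower and 14.6% higher. edgeR's quasi-likelihood test called 4 members lower, the main TSSs of Actb, Tuba1a and Arpc1a and Actb TSS 17, beside 8.55% of TSSs lower and 10.5% higher. DESeq2 called 7 lower, beside 13.7% lower and 15.1% higher. In the model of all 14 libraries 5 were lower, beside 5.59% lower and 7.61% higher.

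Schwann cell markers changed in the same cells: 5 of 9 were higher and 2 lower with CPT-cAMP, beside 13.5% and 13.9% of all main TSSs tested. Ngfr, a marker of immature and repair Schwann cells, fell by 1.72 on the log2 scale (limma adjusted p = 4.29e-15). The summed level of the listed fibroblast markers, nearly all of it Col1a1, was between 803 and 909 RPM in control and between 370 and 466 RPM in cAMP-treated libraries, while Pdgfra was at 0 in all 3 control libraries. Pdgfrb, the 1 listed marker of mural cells, summed to between 0.779 and 1.91 RPM in control and between 22.4 and 29.6 RPM in cAMP-treated libraries. The main Pdgfrb TSS alone had means of 0.909 and 24.7 RPM (limma adjusted p = 1.58e-06). The macrophage marker Csf1r was at 0 in both groups. The part of any of these in the fall of the 4 genes was not tested.

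Between parental and ΔSOX10 S16 cells, Arpc1a was the only one of the 4 genes called by limma on RPM over the S16 libraries alone. Of 27 members tested, 1 was lower, the main Arpc1a TSS (log2 fold change -5.17, SE 0.375, limma adjusted p = 5e-05), beside 6.55% of the 3875 TSSs tested. This fitted value depends on the pseudocount, being -3.01 with a pseudocount of 5 and -8.37 with one of 0.1. From 2978 reads in the parental libraries and 1 in the clones, the level was 5400-fold lower in the clones, with an exact interval at 95% of 969 to 214000 that covers counting error alone. Without either parental library the TSS was above 1 RPM in only 1 library and could not be tested. It was lower under every alternative that could be run.

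In the same fit no member was called higher, beside 1.65% of all TSSs tested, although 7 had an unadjusted p under 0.05. edgeR's quasi-likelihood test called 1, the main Actb TSS, and DESeq2 called 4, all of Actb, namely TSS 1, TSS 6, TSS 16 and TSS 22. Of all TSSs, edgeR called 2.12% higher and 4.44% lower, and DESeq2 called 4.23% higher and 6.06% lower. The main Actb TSS was at 14950 ± 919 RPM in parental cells (SD, n = 2) and 25976 ± 4501 RPM in the clones (n = 4), a log2 difference of 0.78 (SE 0.218, limma adjusted p = 0.0646). All 4 clones were above both parental libraries, as in 7.69% of TSSs tested.

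The Actb result depends on the scaling. The median log2 fold change over all TSSs tested was -0.18 in RPM and -0.05 after TMM or median-ratio scaling, and Actb passed the test with TMM scaling (0.93, adjusted p = 0.0088) and with median-ratio scaling (0.93, adjusted p = 0.00953). It also passed with edgeR (adjusted p = 0.00206), in the model over all 14 libraries (0.00263) and without clone 1-2 (0.86, adjusted p = 0.0249), but not without either parental library or any other clone (adjusted p between 0.0777 and 0.484). The shares of all TSSs called higher and lower were 2.38% and 5.86% with TMM, 2.38% and 5.82% with median-ratio scaling, and 1.75% and 7.42% in the model of all 14 libraries. Summed over its TSSs, Actb was 0.78 higher on the log2 scale (limma adjusted p = 0.0801), beside 2.3% of genes called higher and 5.92% lower.

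Tuba1a and Map1b did not pass the test between parental and ΔSOX10 cells. The main Tuba1a TSS was at 5520 ± 311 RPM in parental cells and 4259 ± 968 RPM in the clones, with a log2 difference of -0.40 (SE 0.239, limma adjusted p = 0.407). All 4 clones were below both parental libraries, as in 21.7% of all TSSs tested. Without clone 1-2 the difference was -0.24 (adjusted p = 0.49). Map1b was at 76.2 ± 19.5 and 59.5 ± 30.2 RPM, with a log2 difference of -0.44 (SE 0.381, limma adjusted p = 0.595). It was -0.18 without parental library 1 and -0.75 without clone 1-1 (adjusted p = 0.926 and 0.126), and lay between -0.70 and -0.29 without any other library. The clones ranged for Map1b from 39.6 to 104 RPM, and a difference near the size seen with CPT-cAMP (-0.47) did not pass here. What size 2 parental and 4 clonal libraries could detect was not tested.

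In the same S16 comparison, 8 of 9 listed Schwann cell markers were lower, beside 5.5% of all main TSSs tested. The listed fibroblast markers summed to between 2260 and 2830 RPM in parental libraries and between 2970 and 5300 RPM in the clones. The main Col1a1 TSS did not pass the test (log2 difference 0.71, SE 0.242, limma adjusted p = 0.127). S16 cells are a cell line and each clone grew from a single cell, so these values are levels within that line and not shares of fibroblasts. The part of any of these markers in the Actb difference was not tested.

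**Figure D2:**
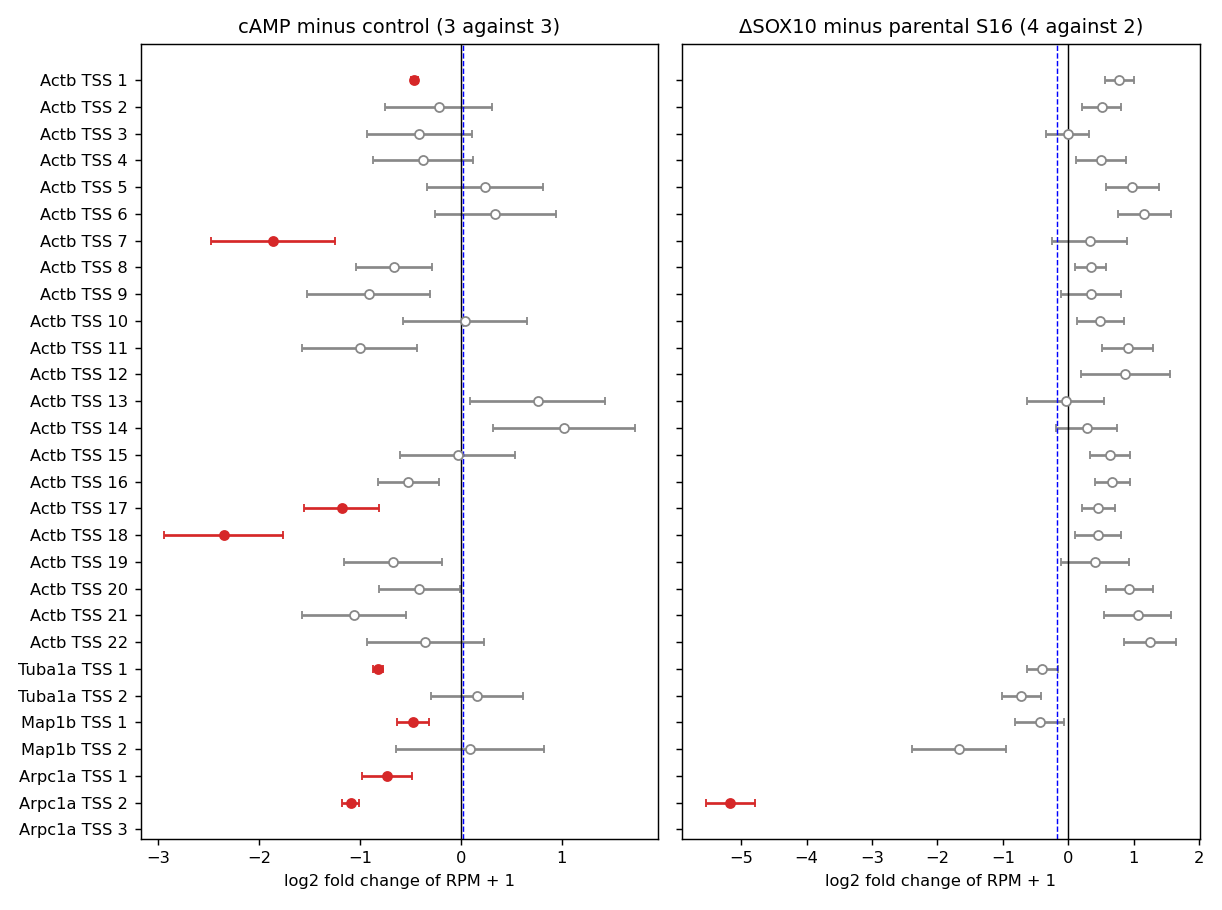
Log2 fold changes of RPM + 1 (± SE) of each member TSS in both comparisons, numbered from the 5′ end of each gene; filled red points have a limma adjusted p under 0.05, and the dashed line is the median of all TSSs tested (0.02 and -0.18). With CPT-cAMP 8 TSSs are filled and below 0, and in ΔSOX10 cells 1 is, Arpc1a TSS 2.

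Arpc1a had 3 TSSs within a short stretch of the gene. TSS 1 lay 89 bp upstream of the main one, TSS 2, at chr12:13346842-13346858, just outside the H3K4me3 peak (10 bp) and within the SOX10 peak. It measured 39.2 and 35.4 RPM in nerve, 41.2, 56.7 and 38.5 RPM in control cells and 31.4, 19.1 and 31.4 RPM in cAMP-treated cells. All cAMP libraries were below all control libraries, as in 17.4% of all TSSs tested. The log2 fold change was -0.73 (SE 0.245, limma adjusted p = 0.0337). The call was lost, however, under 9 of 16 alternatives, including edgeR (adjusted p = 0.0657) and the omission of any library but control 3. In parental cells TSS 1 had 32 and 250 reads, and in the clones it had 29 reads, all in clone 2-2.

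TSS 1 was not tested in S16 cells, and its parental libraries differ widely from each other (0.723 and 6.48 RPM). TSS 3, 199 bp downstream of the main one at chr12:13346568-13346570, had 1.47 and 3.96 RPM in nerve, 1.84 RPM (71 reads) in parental library 2 and at most 0.513 RPM in the other culture libraries. It passed the filter in neither comparison. Together TSS 1 and TSS 3 held between 6.79% and 11.6% of the Arpc1a RPM in each nerve and primary cell library.

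Tuba1a and Map1b had 1 minor TSS each. Tuba1a TSS 2, at chrX:115147498-115147501 and 56 bp downstream of the main one, had between 3.31 and 10.5 RPM in nerve and primary cells, between 22.0 and 27.4 RPM in parental S16 cells and between 11.1 and 17.8 RPM in the clones. It did not pass the test with CPT-cAMP (log2 fold change 0.16, SE 0.46, limma adjusted p = 0.867), nor in ΔSOX10 cells (-0.72, SE 0.299, limma adjusted p = 0.224). Map1b TSS 2, at chr2:48864889-48864915 and 290 bp downstream of the main one, had 8.50 and 7.32 RPM in nerve and between 0 and 6.76 RPM in culture. It passed neither test (adjusted p = 0.957 and 0.245).

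The use of TSSs within each gene was tested with limma's diffSplice, which asks whether TSSs of 1 gene changed by different amounts. None of the 4 genes passed with CPT-cAMP (adjusted p = 0.255 for Actb, 0.313 for Tuba1a, 0.726 for Arpc1a and 0.799 for Map1b), beside 8.91% of the 460 genes tested, and 0 had an unadjusted p under 0.05. In S16 cells, none of 3 genes passed (Map1b 0.625, Tuba1a 0.87, Actb 0.961), beside 4.8% of 417, again with 0 at an unadjusted p under 0.05. edgeR's diffSpliceDGE also called none in either comparison. With a pseudocount of 5, Tuba1a passed with CPT-cAMP (adjusted p = 0.0479), and with no filter Arpc1a passed in S16 cells (adjusted p = 0.00012). The clone means of Arpc1a TSS 1, TSS 2 and TSS 3 were at or near 0 (0.207, 0.00713 and 0 RPM). Their changes therefore follow their parental means (3.60, 35.6 and 0.920 RPM), and this call cannot show a change in TSS use.

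The other 21 Actb TSSs lay between 1104 and 2335 bp downstream of the main one, on the same strand and within the same H3K4me3 peak of 4867 bp. Each was between 2 and 16 bp wide, beside a median width of 57 bp over all candidate TSSs. In group means they ranged from 0.373 RPM (TSS 18 in cAMP-treated cells) to 52.2 RPM (TSS 5 in the clones). Only 5 genes of the table had more candidate TSSs than Actb and 1 had as many. Where these positions fall among the exons of Actb was not determined, as no rn5 annotation was used here.

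With CPT-cAMP, 20 of the 21 were tested, 3 were lower and none higher, and 15 had a log2 fold change below 0, as had 48.5% of all TSSs. Being of 1 gene, they are not independent of each other. TSS 18 had 3.08, 9.34 and 5.73 RPM in control libraries and 1.09, 0 and 0.0293 RPM in cAMP libraries (log2 fold change -2.35, SE 0.589, limma adjusted p = 0.005). TSS 17 had 19.4, 22.2 and 17.3 RPM in control libraries and 10.5, 4.65 and 10.5 RPM in cAMP libraries (-1.18, SE 0.369, limma adjusted p = 0.0232). TSS 7 had 7.20, 14.2 and 5.46 RPM and then 1.39, 5.60 and 0.0587 RPM (-1.86, SE 0.613, limma adjusted p = 0.0302), and its groups overlapped.

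The groups did not overlap for TSS 17 and TSS 18, with the cAMP libraries lower, as in 17.4% of all TSSs tested. Of these 3, edgeR called TSS 17 alone, whereas TSS 17 lost its call without control library 1, control library 2 or cAMP library 2 (adjusted p = 0.0651, 0.0909 and 0.0997) and TSS 7 under 9 of 16 alternatives. In ΔSOX10 cells, 19 of the 21 were above 0 on the log2 scale and 2 below it, none passed the test, and 63.6% of all TSSs were below 0. These 21 are of 1 gene, measured in the same libraries, and are not independent of each other. Their log2 differences ranged from -0.04 to 1.25, around the value of the main TSS.

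**Figure D3:**
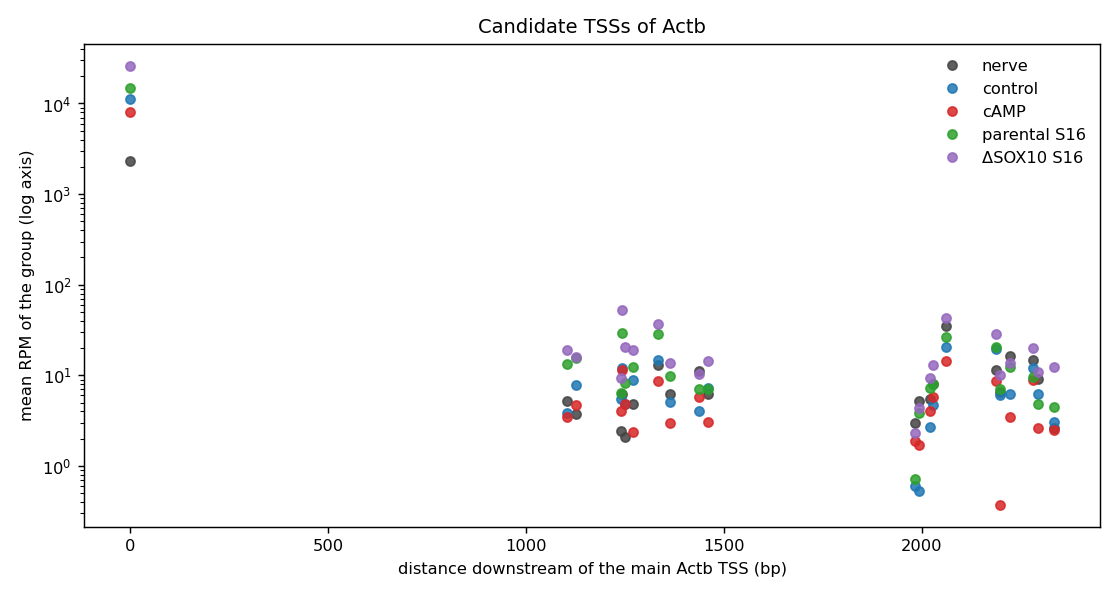
Mean RPM of each of the 22 Actb TSSs (log axis) against its distance downstream of the main Actb TSS, coloured by group. The main TSS at 0 bp is between 2304 and 25976 RPM, and the others, from 1104 bp onward, are at most 52.2 RPM.

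These downstream TSSs took a larger share of Actb in nerve than in culture. They held 7.66% and 6.79% of the Actb RPM in the nerve libraries and between 1.12% and 1.77% in the 12 culture libraries. Their summed level was nearer to equal, at 175 and 182 RPM in nerve, between 128 and 200 RPM in control cells, between 95.0 and 119 RPM in cAMP-treated cells, 231 and 255 RPM in parental cells and between 279 and 463 RPM in the clones. The same held over genes with several TSSs and at least 10 RPM: the median share outside the main TSS was 10.1% and 15.9% in nerve and between 1.76% and 2.57% in culture. The Actb share was larger than that of between 26.5% and 46.8% of those genes, depending on the library. Candidate TSSs were chosen in nerve, so that TSSs used in culture alone are not counted, and RNA quality was not measured here.

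**Figure D4:**
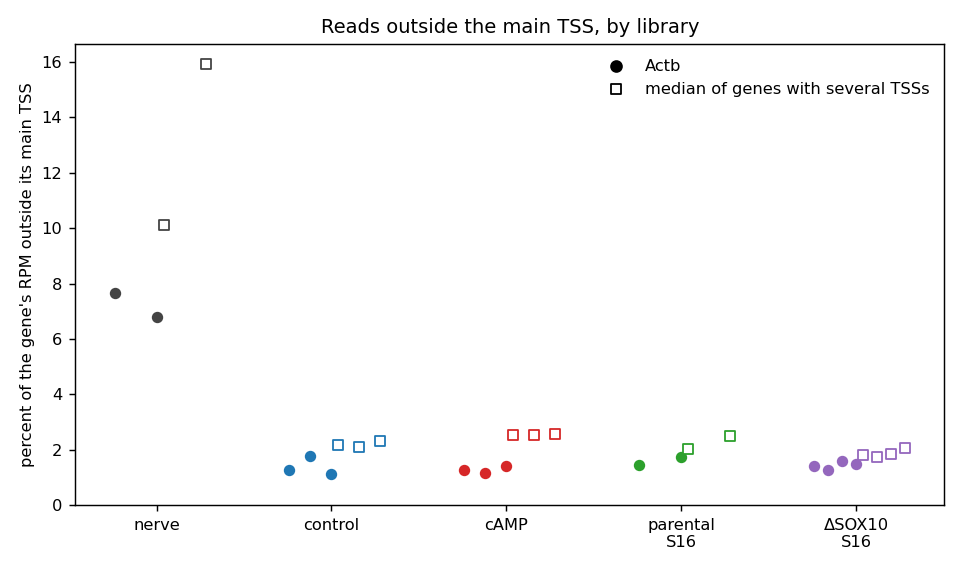
Percent of RPM outside the main TSS in each library, for Actb (filled circles) and as the median over genes with several candidate TSSs and at least 10 RPM (open squares). Both are higher in the 2 nerve libraries (6.79% and 7.66% for Actb) than in the 12 culture libraries (at most 1.77% for Actb).

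Downstream of Tuba1a lay a like set of TSSs that the table lists under Tuba1b. These 8 TSSs, between chrX:115144668 and chrX:115145529 in rn5, are 2028 to 2885 bp downstream of the main Tuba1a TSS and at least 20557 bp upstream of the main Tuba1b TSS at chrX:115124057-115124115. Together they measured 49.4 and 79.5 RPM in nerve, between 34.9 and 51.2 RPM in control cells, between 16.5 and 38.2 RPM in cAMP-treated cells, 61.5 and 62.6 RPM in parental cells and between 31.0 and 70.2 RPM in the clones. Set against the main Tuba1a TSS, they were 1.64% and 2.10% of the sum of both in nerve and between 0.539% and 1.38% in culture. None of the 8 passed the test in either comparison (adjusted p between 0.118 and 0.944 with CPT-cAMP and between 0.096 and 0.948 in ΔSOX10 cells).

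The main Tuba1b TSS measured 900 ± 34.2 RPM without and 805 ± 53.1 RPM with CPT-cAMP (SD, 3 libraries in each group), with a log2 fold change of -0.16 (SE 0.0703, limma adjusted p = 0.105). The main Tuba1a TSS had -0.82 in the same comparison, and the difference between the 2 genes was not tested.

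The members were set beside the listed genes of the same systems, by the main TSS of each gene, and the lists include the members. Members and lists were chosen with earlier results of these data known, so the counts are descriptions only. Without the members the medians with CPT-cAMP were -0.33 for the actin list (13 of 28 lower, 6 higher), -0.28 for the tubulin list (3 of 6 lower, 1 higher) and 0.02 for the microtubule-associated list (1 of 14 lower, 2 higher). All main TSSs tested had a median of -0.03, with 13.9% lower and 13.5% higher. Of the 9 Arp2/3 genes searched, 3 were listed, and the intronic Arpc1a TSS was lower in both comparisons while the others did not pass either test. Whether transcripts begun at the intronic site give a subunit of the complex was not measured here. The study predicts a truncated protein that lacks most of the full-length sequence, and considers it unlikely to join the complex. Its attempts to detect this protein with antibodies did not succeed. The fall of this TSS is therefore not a measure of the full-length Arp2/3 subunit. Arpc4 was at 305 and 264 RPM in control and cAMP-treated cells (log2 fold change -0.21, SE 0.0979, limma adjusted p = 0.142), and Arpc5l at 95.9 and 73.2 RPM (-0.39, SE 0.154, limma adjusted p = 0.0773). In S16 cells their log2 differences were 0.30 (SE 0.213) and -0.02 (SE 0.272), with limma adjusted p of 0.495 and 0.975.

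Of 29 actins and actin-binding proteins tested with CPT-cAMP, 14 were lower and 6 higher, and 9 did not pass the test, with a median log2 fold change of -0.39. Over all 2832 main TSSs tested, 13.9% were lower and 13.5% higher, with a median of -0.03. The largest falls were in Zyx, a focal adhesion protein (-2.51, SE 0.197), Gsn, the filament-severing gelsolin (-1.27, SE 0.179), and Actn4, a filament crosslinker (-1.13, SE 0.136). The largest rises were in Limch1, a regulator of non-muscle myosin (1.75, SE 0.205), Csrp1, an actin-associated LIM protein (1.16, SE 0.0699), and Capg, a filament-capping protein (1.04, SE 0.0735). The limma adjusted p of these 6 were 1.74e-09, 1.18e-05, 1.22e-06, 8.32e-07, 1.87e-11 and 3.1e-10.

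In S16 cells the same list had 7 lower, 2 higher and 20 that did not pass, with a median log2 difference of -0.06, beside 5.5% lower and 1.99% higher among 2763 main TSSs and a median of -0.17. TMM scaling moved this split to 6 lower and 4 higher and the median to 0.09. Gas7, which binds actin filaments, was at 335 ± 8.02 RPM in parental cells and 0.126 ± 0.106 RPM in the clones, Capg at 682 ± 29.0 and 43.4 ± 15.5 RPM, and Marcks, a membrane-bound actin crosslinker, at 182 ± 9.90 and 47.6 ± 10.0 RPM. The limma adjusted p of these 3 were 3.88e-06, 5.28e-05 and 0.000849. The 2 that rose were Gsn (1.53, SE 0.301, limma adjusted p = 0.0139) and Dstn, which depolymerizes actin filaments (1.22, SE 0.25, limma adjusted p = 0.0177).

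Of 7 tubulins and tubulin-folding cofactors tested with CPT-cAMP, 4 were lower and 1 higher, beside 13.9% and 13.5% of all main TSSs tested. The falls were led by Tbcc, a folding cofactor (log2 fold change -0.99, SE 0.311), then Tuba1a and the β-tubulin Tubb6 (-0.66, SE 0.141), and the β-tubulin Tubb5 rose (0.27, SE 0.0769). The limma adjusted p were 0.0235 for Tbcc, 0.00118 for Tubb6 and 0.0127 for Tubb5, and the median of the list was -0.40. In S16 cells 1 of 7 was lower, the β-tubulin Tubb2a (-0.93, SE 0.222, limma adjusted p = 0.035), beside 5.5% of all main TSSs tested.

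Of 15 microtubule-associated and motor proteins tested with CPT-cAMP, 2 were lower, Mid1ip1 (-0.67, SE 0.138) and Map1b, and 2 higher, Tacc1 (1.15, SE 0.307) and Dclk1 (0.54, SE 0.108), while 11 did not pass. Over all main TSSs tested, 13.9% were lower and 13.5% higher. The limma adjusted p were 0.000901 for Mid1ip1, 0.008 for Tacc1 and 0.000667 for Dclk1, and the median of the list was -0.04. The median of the list in S16 cells was -0.46, beside -0.17 over all main TSSs tested. By limma 5 of 13 were lower there (4 after TMM scaling) and none higher, beside 5.5% and 1.99% of all main TSSs. They were led by Tacc2, a centrosomal protein (-4.80, SE 0.421), Tacc1 (-2.31, SE 0.531) and Dclk1, a kinase that binds microtubules (-1.69, SE 0.317), with limma adjusted p of 0.00015, 0.0305 and 0.0107. Of 4 intermediate filament genes and linkers tested with CPT-cAMP, Vim, the vimentin gene, was higher (0.38, SE 0.0363, limma adjusted p = 3.42e-08), and none of 3 passed in S16 cells.

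**Figure D5:**
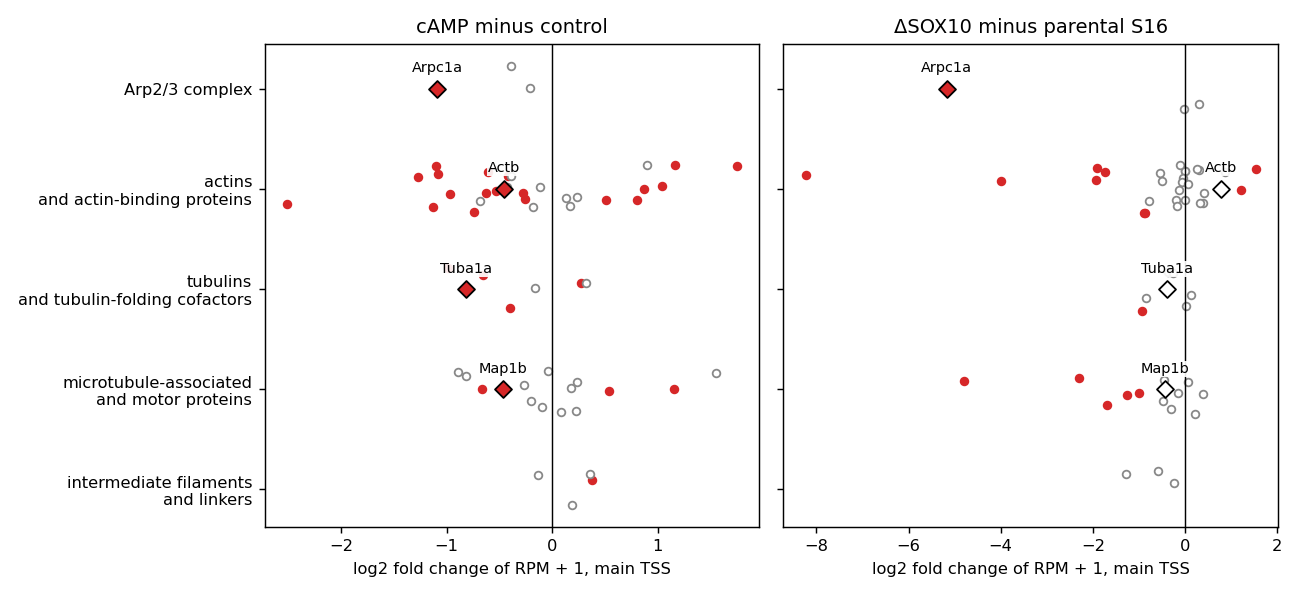
Log2 fold changes of RPM + 1 of the main TSS of each tested gene, by list (vertical position within a list is random), with the 4 genes as labelled diamonds; filled symbols have a limma adjusted p under 0.05. With CPT-cAMP, 14 of 29 genes of the actin list are filled below 0 and 6 above it, beside 13.9% and 13.5% of all main TSSs tested. In ΔSOX10 cells the intronic Arpc1a TSS is at -5.17 and the other 2 Arp2/3 genes are near 0.

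The genes whose levels were most like those of each member were found by Pearson's r of log2(RPM + 1) over the 14 libraries, among 2064 main TSSs with a mean of at least 10 RPM. These values describe libraries that fall into 5 groups and 2 instruments, and they carry no test. The closest to Arpc1a were S100b, a calcium-binding Schwann cell marker (r = 0.993), Cmtm5 (0.979) and Plekhb1 (0.965). S100b had 1690 RPM in nerve, 156 RPM in parental cells and 9.26 RPM in the clones. The likeness did not extend to the size of the fall of Arpc1a with CPT-cAMP, from 540 to 254 RPM. There S100b went from 1880 to 1580 RPM and Cmtm5 from 228 to 217 RPM, while Plekhb1 rose from 91.5 to 245 RPM. The closest to Actb were the glycolytic enzyme gene Aldoa (0.989), Arpc4 (0.985) and Ap2m1, a subunit of the clathrin adaptor (0.982). For Tuba1a (Ndufs7 0.808, Hcfc2 0.803, Fkbp14 0.801) and Map1b (Dbnl 0.838, Cdk10 0.823, Nicn1 0.813) no gene was as close. Among the members, r was 0.678 between Arpc1a and Map1b, 0.473 between Actb and Tuba1a and -0.752 between Actb and Arpc1a.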

How the data were processed

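The authors trimmed reads with Cutadapt 1.14, mapped them with STAR 2.5.2a to rn5, converted them with SAMtools 1.9, clustered read starts with Paraclu and counted them with featureCounts (Subread 1.6.1). The values deposited by the authors are RPM per TSS and library. Fold changes and FDR values of the authors' edgeR 3.24.3 comparisons were in the same table and were not used. Each RPM value is a multiple of 1 read, which gave total reads per library; 4 S16 libraries hold values rounded to 3 digits, so their reads are approximate. In all 14 libraries 100% of low values came out whole within 0.1 read, although nerve library 2 had 53 such values only. Since no molecular identifiers are named, the intervals and floors express counting error alone. The p-values measure the spread between the libraries of a group.

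The members and gene lists were chosen with earlier results of these data known. log2(RPM + 1) was tested with limma 3.58.1 (eBayes with trend) in R 4.3.3 for TSSs that 2 or more libraries of a comparison held at over 1 RPM, with Benjamini-Hochberg adjustment over all TSSs tested and a threshold of 0.05. Fold changes of RPM + 1 understate those of low TSSs. Named were all members' main and called TSSs, every TSS of the 3 genes with few, listed Arp2/3 genes, and in other lists up to 3 called genes a direction. Alternatives were TMM and median-ratio scaling, other filters and pseudocounts, count tests on the recovered reads with edgeR 4.0.16 and DESeq2 1.42.0 (by which 352 and 563 TSSs were lower and 433 and 621 higher with CPT-cAMP, and 172 and 235 lower and 82 and 164 higher in ΔSOX10 cells), all 14 libraries, sums per gene, single libraries left out and a replicate block. The tests were tried on simulated data.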

Additional observations from a re-analysis of the deposited data

Results flagged for a closer look

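Among the 4 ΔSOX10 clones, 3 of 28 member TSSs with differing values had 1 clone far from the others (gap over range above 0.829, Dixon's value at 95%, which chance gives in about 1 of 20 groups), beside 14.4% of the 4262 such TSSs in the table. Actb TSS 13 had 10.4 RPM in clone 2-2 and between 2.02 and 2.96 RPM in the other clones. For Arpc1a the other 3 clones had no read, so that any value in the remaining clone passes the rule: in clone 2-2, TSS 1 had 0.827 RPM and TSS 2 had 0.0285 RPM, which is 1 read.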

How the results depend on the processing

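With CPT-cAMP, 8 members were lower. There were 4 with no filter, 4 by edgeR's quasi-likelihood test, 5 in the model of all 14 libraries and between 4 and 7 with a library left out, and the members higher numbered between 0 and 1 with a library left out (Actb TSS 14, without control library 2). The main Actb, Tuba1a and Arpc1a TSSs kept their call under 17 alternatives each, although Actb missed it (adjusted p = 0.0628) in the model of all 14 libraries with a pseudocount of 0.1. Map1b kept it under 10, with adjusted p between 0.00623 and 0.366. In ΔSOX10 cells, members higher numbered 1 with TMM scaling, median-ratio scaling, edgeR and all 14 libraries, 4 with DESeq2, and between 0 and 1 with a library left out (Actb TSS 1 without clone 1-2, Actb TSS 5 without parental library 2). Members lower numbered between 0 and 1, with 0 only where a parental library was left out, since Arpc1a then failed the filter. TSS use was called in 1 gene with CPT-cAMP at a pseudocount of 5 and in 1 gene in ΔSOX10 cells with no filter. The latter was Arpc1a, whose TSSs were at or near 0 in the clones, so that its TSS use there cannot be judged. Of 16 neighbouring pairs of group levels, 7 differed, and between 5 and 8 under other pseudocounts and TMM scaling. With TMM the order, and so the pairs, changed for Arpc1a (nerve above control) and Tuba1a (ΔSOX10 above control). With CPT-cAMP and in ΔSOX10 against parental cells no direction reversed. Except where a filter removed a TSS, the cause was not tested.

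Same-numbered control and cAMP libraries did not deviate together (r = 0.029, 0.008 and 0.038), and not every library was closest to its own number. With the replicate block 8 members were lower and 0 higher. With 1 parental library left, its spread is assumed to be that of the clones. Depth limits Arpc1a in the clones, where 1 read was found in 150270120.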
